A study of Mus musculus with 15 samples.

Results

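Twist1 and Twist2 are transcription factors with a basic helix-loop-helix domain, and the other genes described here encode the proteins that decide what they can pair with. They are the E proteins Tcf3 (E2A), Tcf4 (E2-2) and Tcf12 (HEB) and the inhibitors Id1, Id2, Id3 and Id4. All probes whose gene symbol was one of these 9 names were taken, which gave 18 of the 45281 probes of an Illumina bead array and 9 of its 19057 named genes. After a filter on detection, 15 of the 18 remained among 21869 probes, at least 1 for each of the 9 genes.

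A basic helix-loop-helix factor binds DNA only as a dimer, at short sites called E boxes. TWIST1 pairs with an E protein or with another TWIST1 molecule, whereas Id proteins pair with E proteins but lack the basic region that touches DNA and so keep E proteins from binding. In head mesenchyme TWIST1 is needed for cranial neural tube closure and for the vault of the skull, and Id genes are well known targets of BMP signalling. Loss of function of either TWIST1 or TCF12 in humans causes coronal craniosynostosis.

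The RNA came from the heads of embryonic day 9.5 mice at 18 to 20 somites, of mixed C57Bl/6, 129 and BALB/c descent, with 1 head per array and 15 arrays. Every embryo carried a floxed Twist1 allele. Control heads (n = 3) were Twist1 flox/+ without Cre. Het heads (n = 4) were Twist1 flox/del without Cre, so that every cell had lost 1 allele. CM-Het heads (n = 4) were Twist1 flox/+ with Mesp1 Cre/+, in which Cre is expressed from the Mesp1 locus in early mesoderm and takes the place of 1 Mesp1 copy. CM-CKO heads (n = 4) were Twist1 flox/del with Mesp1 Cre/+, in which the mesoderm lineage was bred to lose both alleles while all other cells kept 1. Neural crest, the other large source of head mesenchyme, is not in the Mesp1 lineage and keeps its floxed allele. A whole head mixes these tissues, so in every result below fewer cells of a type and less RNA per cell cannot be told apart.

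Values are log2 signals after background correction and quantile normalization, and a difference was called where its Benjamini-Hochberg adjusted p from the limma fit over all 21869 probes was under 0.05. The arrays had mean deposited signals of 341 to 434.4 and each detected 19204 to 19793 probes. Of the marker lists for head tissues, 7 of 8 neural tube genes, 6 of 7 neural crest genes and 7 of 10 cranial mesoderm genes had a probe that passed the filter. Myf5, a muscle marker of the mesoderm list, was on the array and did not pass. The detection p-values of Het 1, used for the filter and the background, were imputed from the other 14 arrays, whereas its signals are measured. The arrays lay on 3 slides. CM-CKO 1, 2 and 3 lay on slide 1 together with Het 1. Control 1 lay on slide 2 with the first 2 CM-Het heads and with Het 2 and 3, and the remaining 6 arrays, among them CM-CKO 4, made up slide 3. Most CM-CKO heads therefore share a slide with only 1 head of another group. Values fitted with slide as a block are given where they change a call.

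Promoter windows of 7 of the 9 genes were matched in the RefSeq table for GRCm38.p6, and those of the 4 genes that carried calls in more than 1 comparison follow. Each is the 250 bases before an annotated start, read 5′ to 3′ on the strand of the gene. The Tcf3 window lies within the annotated gene (chr10:80409541-80433976), so its start is not the outermost start of Tcf3. Capitals mark the E box CANNTG, which reads the same on both strands. The windows lie at chr12:33957421-33957670 (plus strand) for Twist1, chr1:91801211-91801460 (plus) for Twist2, chr10:80433636-80433885 (minus) for Tcf3 and chr12:25096093-25096342 (minus) for Id2.
Twist1: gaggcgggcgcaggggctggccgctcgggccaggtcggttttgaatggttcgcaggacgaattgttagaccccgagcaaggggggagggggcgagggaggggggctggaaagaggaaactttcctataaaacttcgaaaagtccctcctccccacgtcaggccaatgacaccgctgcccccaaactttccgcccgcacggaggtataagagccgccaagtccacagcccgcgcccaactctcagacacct
Twist2: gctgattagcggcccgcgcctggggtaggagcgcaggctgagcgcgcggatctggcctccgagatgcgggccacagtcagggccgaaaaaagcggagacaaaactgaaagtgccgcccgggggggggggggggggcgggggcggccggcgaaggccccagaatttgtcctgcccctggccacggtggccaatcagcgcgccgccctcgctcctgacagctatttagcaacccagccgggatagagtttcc
Tcf3: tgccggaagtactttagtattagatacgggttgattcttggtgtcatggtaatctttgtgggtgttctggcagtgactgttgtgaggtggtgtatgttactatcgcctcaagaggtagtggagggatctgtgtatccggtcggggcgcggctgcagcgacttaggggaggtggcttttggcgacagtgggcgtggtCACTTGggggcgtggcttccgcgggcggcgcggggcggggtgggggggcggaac
Id2: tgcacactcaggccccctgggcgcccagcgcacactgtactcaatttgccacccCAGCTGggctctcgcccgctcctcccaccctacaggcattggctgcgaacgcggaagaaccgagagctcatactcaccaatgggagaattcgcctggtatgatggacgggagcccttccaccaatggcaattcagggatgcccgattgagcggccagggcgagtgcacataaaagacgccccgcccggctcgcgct

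Tcf3 held 1 E box in this window and Id2 held 1, with different central bases, and the Twist1, Twist2, Id3 and Id4 windows held none. Tcf12 had 3 windows, of which 2 held 1 E box each. Of all 32851 windows of this length in the table, 66.2% held at least 1. The GC content of these 4 windows was 62.4%, 68.8%, 59.6% and 62.8% in the order printed, against a median of 52.4% over all windows. These are matches of letters and no factor binding was measured.

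Twist1 was lower in both groups that carry the deleted allele. Its log2 signal was 9.87, 9.94 and 9.95 in the Control heads and 10.04, 9.76, 10.01 and 9.84 in the CM-Het heads. It was 8.62, 9.13, 8.80 and 9.32 in the Het heads and 9.23, 8.94, 9.13 and 9.34 in the CM-CKO heads. No head with the deleted allele reached any head without it, which was so for 0.114% of all probes, and within each of these pairs of groups the ranges overlapped. Averaged over the presence of Cre, the allele went with a difference of −0.85 ± 0.10 (SE) or 55.4% of the signal (adjusted p = 0.000496), and under the slide block the difference was −0.68 (adjusted p = 0.0149). This average and the matching one for Cre were added after the data had been seen.

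The group pairs give the same order. Het heads held 51.6% of the Control signal (−0.95 ± 0.15), which had the smallest p of all 21869 probes in that comparison (unadjusted p = 9.91e-06) and an adjusted p of 0.217. An exact two-sided permutation test of this gene alone gave p = 0.0286, the smallest that 35 splits allow, and 0.0429 after adjustment over the 6 pairs of groups. The adjusted limma p passed the threshold with array weights (adjusted p = 0.0336) and without Het replicate 4 (−1.07, adjusted p = 0.0361). CM-Het exceeded Het by 0.94 ± 0.14 (adjusted p = 0.0408), where 0.0137% of all probes were called higher, and this call ended without the filter on low signals (adjusted p = 0.0725). It also ended when any 1 of Het 1, 2 or 3 or CM-Het 1, 2 or 3 was left out (adjusted p 0.06 to 0.172). Het and CM-CKO heads inherit the same Twist1 genotype, flox/del, and differ in whether Cre can delete the floxed allele in mesoderm. CM-CKO minus Het was 0.19 (adjusted p = 0.468), with a 95% interval from −0.10 to 0.49. A further fall of more than 0.10 in the mixed head samples lies outside that interval. With slide as a block that difference was 0.33 (adjusted p = 0.175), and the Cre average for Twist1 was 0.09 (95% interval −0.13 to 0.31). The CM-CKO heads were at 59.0% of Control (−0.76 ± 0.15, adjusted p = 0.00792) and 59.4% of CM-Het (−0.75 ± 0.14, adjusted p = 0.00429). With slide as a block these were −0.51 (adjusted p = 0.0821) and −0.52 (adjusted p = 0.0633), and on slide 3, with 1 CM-CKO head, they were −0.61 and −0.59. The sources used here do not give the position of the probe relative to the deleted part of the gene.

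Twist2, the close relative of Twist1 that is expressed in overlapping mesenchyme, was lower on average in heads with Cre. Its log2 signal was 7.32, 7.56 and 7.18 in Control and 7.33, 7.16, 7.49 and 7.11 in Het heads. In the groups with Cre it was 7.03, 7.16, 6.88 and 6.77 (CM-Het) and 7.05, 6.78, 6.73 and 6.49 (CM-CKO). Every CM-CKO head lay below every head without Cre, and the CM-Het heads lay below Control but overlapped Het. The shares of all probes that separate in these ways are not given here. CM-CKO fell by 0.59 against Control (SE 0.15, adjusted p = 0.0276) and by 0.51 against Het (SE 0.13, adjusted p = 0.0358). Under the slide block the values were −0.74 (adjusted p = 0.0184) and −0.56 (adjusted p = 0.0291). The difference between CM-CKO and CM-Het was −0.19 (95% interval −0.48 to 0.09, adjusted p = 0.42), and CM-Het minus Control was −0.40 (unadjusted p = 0.0148, adjusted p = 1). The average over both Twist1 genotypes was −0.45 ± 0.10 with Cre (adjusted p = 0.0378), against −0.14 ± 0.10 with the deleted allele (adjusted p = 0.492). The Cre average minus the deleted-allele average is the same contrast as CM-Het minus Het. On this probe that contrast was −0.31 (95% interval −0.6 to −0.03) and was not called. A difference between the effects of Cre and of the allele was therefore not established. Each of the 3 calls ended with median scaling (adjusted p 0.153, 0.0938 and 0.231). The Control call also ended without Control 1, Control 2 or CM-CKO 2 (adjusted p 0.0765, 0.125 and 0.0661), the Het call without 6 of 8 arrays and the Cre average without 9 of 15.

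**Figure D1:**
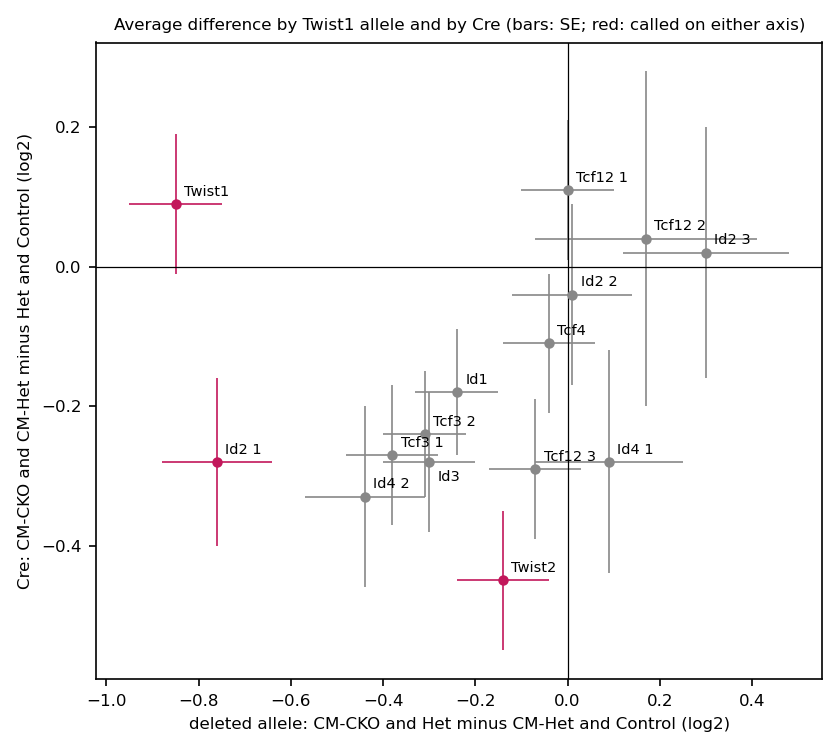
Average log2 difference by the deleted Twist1 allele (horizontal axis) and by Mesp1-Cre (vertical axis) for the 15 probes, with standard errors; a number after a gene is its probe. Twist1 and Id2 probe 1 lie far to the left (−0.85 and −0.76) and Twist2 lies low (−0.45), and these 3, in red, were the probes called on either axis.

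Among the E proteins, Tcf3 fell in CM-CKO heads by both of its probes. Tcf3 encodes E12 and E47, broadly expressed partners of tissue-specific factors. Probe 1 read 8.16, 7.89 and 7.65 in Control, 7.85, 7.87, 7.80 and 8.02 in CM-Het and 7.40, 8.02, 7.77 and 7.92 in Het heads, against 7.30, 7.28, 7.16 and 7.24 in CM-CKO heads. All 4 CM-CKO heads lay below all 11 others, and the same held for probe 2, where they read 6.79 to 7.00 and the others 7.03 to 7.61. The share of all probes that separate these heads is not given here. Probe 1 fell by 0.65 against Control (adjusted p = 0.0152), by 0.53 against Het (adjusted p = 0.0256) and by 0.64 against CM-Het (adjusted p = 0.0089). Probe 2 fell by 0.55, 0.47 and 0.53 (adjusted p 0.0206, 0.0288 and 0.0136). Het and CM-Het heads differed from Control by −0.12 and −0.01 on probe 1, with intervals of −0.42 to 0.19 and −0.32 to 0.29. The interaction, which asks whether the CM-CKO difference from Het exceeds the CM-Het difference from Control, was −0.52 on probe 1 (unadjusted p = 0.0169, adjusted p = 0.243) and −0.45 on probe 2 (adjusted p = 0.266).

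The Tcf3 difference also moved with slide 1. The lowest head outside the CM-CKO group was Het 1 on both probes (7.40 and 7.03), and it is the head that shares slide 1 with CM-CKO 1, 2 and 3. Within slide 1 the CM-CKO heads differed from Het 1 by −0.15 and −0.10 on the 2 probes, and within slide 3 CM-CKO 4 differed from Het 4 by −0.68 and −0.77. With slide as a block the 6 differences were between −0.37 and −0.45, with adjusted p between 0.105 and 0.144, so none was called. Median scaling also ended the calls against Control and Het. Against Control, probe 1 lost its call without Control 1 or 2 (adjusted p 0.0877 and 0.055) and probe 2 without Control 2, Control 3 or CM-CKO 2 (adjusted p 0.0985, 0.0671 and 0.0666). Against Het, both lost it without Het 2, 3 or 4 or CM-CKO 2, and probe 2 also without CM-CKO 4. Against CM-Het, probe 1 kept its call whichever array was left out, and probe 2 lost it without CM-CKO 2 (adjusted p = 0.0526).

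Tcf4 and Tcf12 gave no call in any of the 7 planned comparisons. Tcf4 encodes E2-2 (not the Wnt effector TCF7L2, once given the same name), and its probe 1 spanned 11.27 to 11.99 over the 15 heads. It differed by −0.15 between CM-CKO and Control (95% interval −0.46 to 0.17), and its other 2 probes were detected on no array. Tcf12 encodes HEB and had 3 measured probes that did not move alike. Against Control the CM-CKO heads differed by 0.11, 0.21 and −0.36 on probes 1, 2 and 3, and the last had an adjusted p of 0.165. Tcf12 probe 2 ran from 5.07 in CM-CKO 4 to 7.11 in Het 1, and the slide changed its result. CM-CKO minus CM-Het was 0.03 without the slide and −0.88 with slide as a block (adjusted p = 0.0199), and CM-CKO 4 was the 1 CM-CKO head that shared a slide with CM-Het heads. The fourth Tcf12 probe was detected on no array.

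The Id genes are a group of 4, of which Id2, Id3 and Id4 each had a probe called lower in CM-CKO heads against Control. Id1 read 10.40, 10.55 and 10.65 in Control and 10.27, 9.80, 10.37 and 10.02 in CM-CKO heads, without overlap, and its difference of −0.42 ± 0.13 was not called (adjusted p = 0.0806). The share of all probes without overlap between these groups is not given here. Het heads read 10.21 to 10.36 for Id1 and CM-Het heads 10.09 to 10.48.

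Id2, an inhibitor active in neural crest and in many progenitor cells, showed on its probe 1 the largest difference of the 15 probes between CM-CKO and Control. That probe was designed, per the platform annotation, on a cDNA clone, and probes 2 and 3 on the RefSeq transcript. Probe 1 read 10.50, 10.49 and 10.31 in Control, 10.18, 10.16, 10.40 and 9.93 in CM-Het, 9.65, 9.82, 9.40 and 9.85 in Het and 9.28, 9.41, 9.88 and 9.01 in CM-CKO heads. As for Twist1, the 8 heads with the deleted allele all lay below the 7 without it, although the gap was narrow, between 9.88 in CM-CKO 3 and 9.93 in CM-Het 4. CM-CKO heads held 48.6% of the Control signal (−1.04 ± 0.17, adjusted p = 0.00278) and 58.6% of CM-Het (−0.77 ± 0.16, adjusted p = 0.00939). Both calls held with slide as a block (−1.22, adjusted p = 0.00762, and −0.94, adjusted p = 0.0193) and whichever array was left out. CM-CKO and Het differed by −0.29 (95% interval −0.63 to 0.06, adjusted p = 0.329). The deleted-allele average was −0.76 ± 0.12 (adjusted p = 0.00428). With the slide block it was −0.88 (adjusted p = 0.0201). The interaction was −0.02 (95% interval −0.52 to 0.49).

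The other Id2 probes gave no call and depended on the slide. In the authors' value table the values of probes 2 and 3 stand under each other's probe name and which is right is not known, so these 2 may be exchanged, whereas probe 1 is the same in both tables. Probe 2 read 9.52 to 9.66 in Control, 9.27 to 9.46 in CM-Het, 9.28 to 9.69 in Het and 8.90 to 9.94 in CM-CKO heads, and CM-CKO minus Control was −0.03 (95% interval −0.42 to 0.37). Probe 3, the dimmest, differed by 0.32 (95% interval −0.26 to 0.89). With slide as a block these differences were −0.48 (adjusted p = 0.0894) and −0.10 (adjusted p = 0.895). On slide 3, with 1 CM-CKO head, probes 1, 2 and 3 differed from Control by −1.39, −0.73 and −0.82. The within-array difference of probe 1 minus probe 2 had a mean of 0.85 in Control and −0.17 in CM-CKO heads, a change of −1.01 with ranges that did not overlap (exact two-sided permutation p = 0.0286, the smallest possible, and 0.0857 after adjustment over 18 such tests). Averaging the probes of a gene ended every Id2 call. The calls therefore rest on 1 of 3 probes, and which transcripts each probe reads was not determined here.

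**Figure D2:**
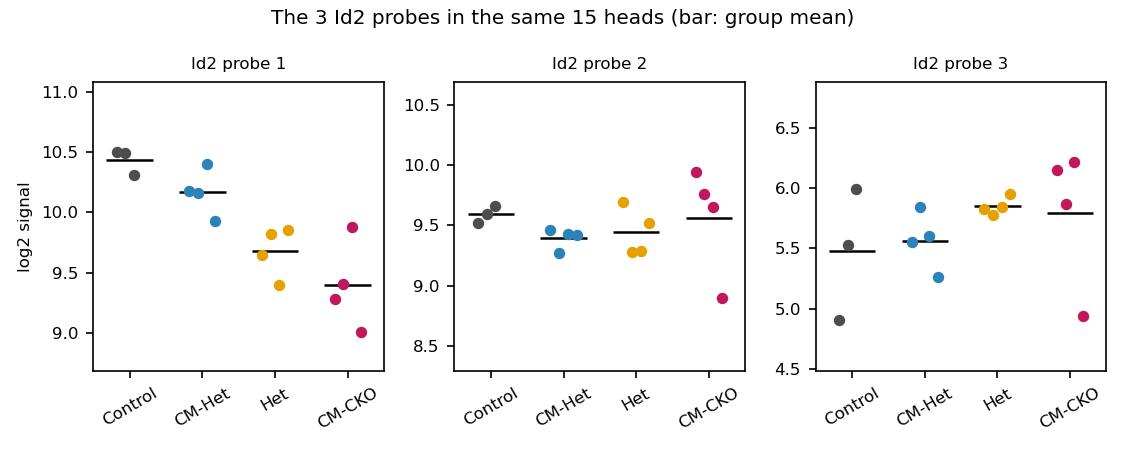
Log2 signal of the 3 Id2 probes in each of the 15 heads by group, with a bar at each group mean; the vertical spans are equal. Probe 1 steps down from Control and CM-Het (9.93 to 10.50) to Het and CM-CKO (9.01 to 9.88), whereas on probes 2 and 3 the CM-CKO heads overlap the Control heads.

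Id3 read 10.06, 10.15 and 10.21 in Control, 9.93 to 10.08 in CM-Het, 9.85 to 10.17 in Het and 9.68, 9.26, 9.99 and 9.32 in CM-CKO heads. CM-CKO 3 lay within the range of the Het and CM-Het heads and the other 3 lay below every head of another group. The fall of 0.58 against Control was called (adjusted p = 0.0349). With slide as a block it was −0.63 (adjusted p = 0.0851). The call also ended with median scaling (adjusted p = 0.0946), with no filter or with the replicate block (adjusted p = 0.0572 in each) and when only the arrays compared were fitted (adjusted p = 0.128), and 6 of 12 alternatives ended it in all. It lost its call when any 1 of the 3 Control heads, CM-CKO 2 or CM-CKO 4 was left out (adjusted p 0.0626 to 0.118). Against Het and CM-Het it was −0.44 and −0.46 (adjusted p 0.0742 and 0.0537).

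Id4, which is prominent in neural progenitors, had 2 measured probes. Probe 2 read 5.75, 6.00 and 5.95 in Control and 5.04, 5.27, 5.40 and 4.80 in CM-CKO heads, and fell by 0.77 (adjusted p = 0.0281), or −0.99 with slide as a block (adjusted p = 0.0252). This call ended when any 1 of the arrays compared other than CM-CKO 3 was left out (adjusted p up to 0.103), without the filter on low signals (adjusted p = 0.0583) and with median scaling (adjusted p = 0.0744). Probe 1 differed by −0.18 (95% interval −0.68 to 0.32) and overlapped in all groups but CM-Het against Control.

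**Figure D3:**
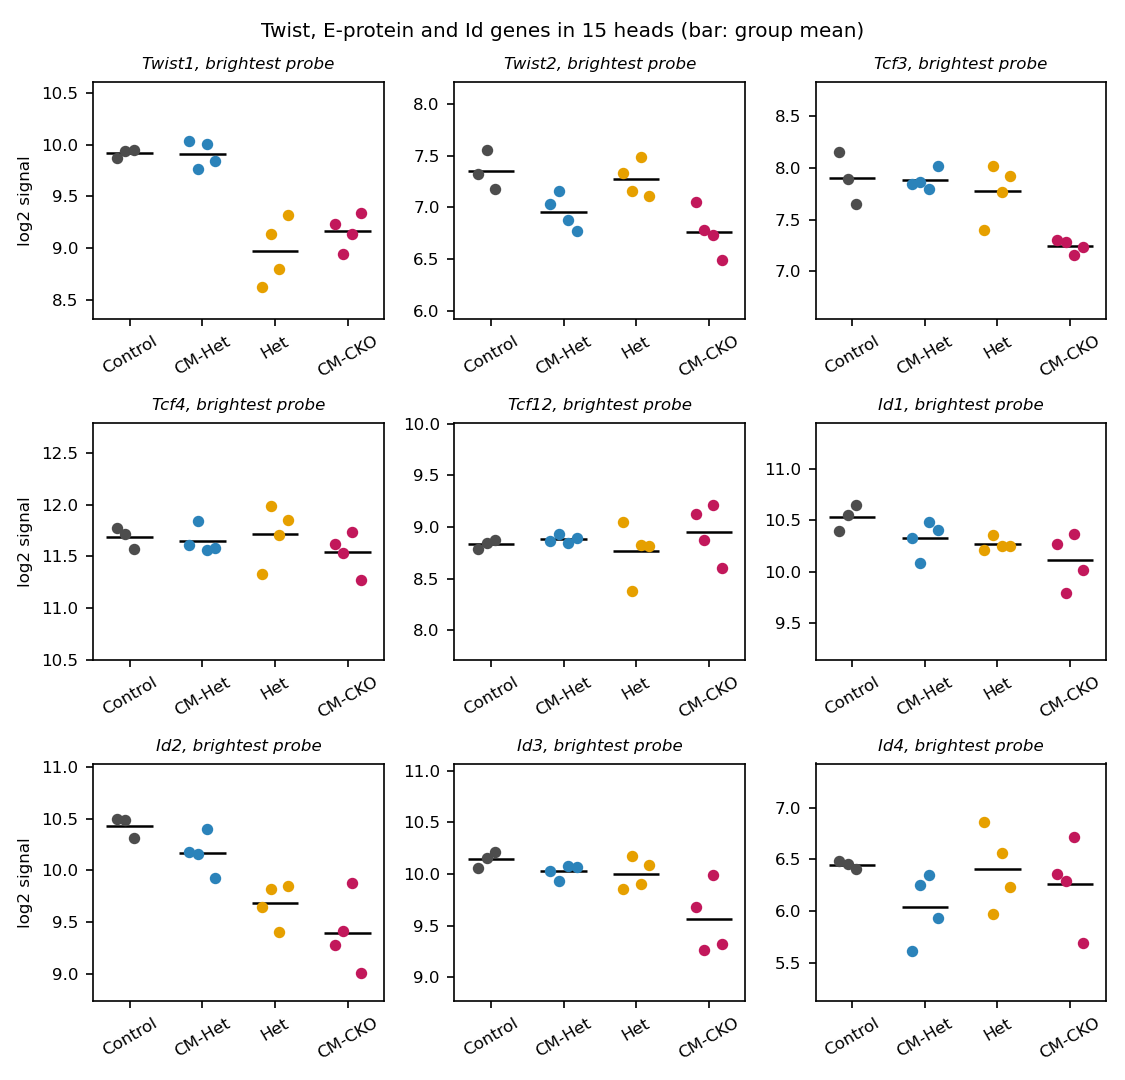
Log2 signal of the brightest probe of each of the 9 genes in each head by group, with a bar at each group mean; every panel spans the same height. Twist1 and Id2 are low in both groups with the deleted allele, and Tcf3 is low in CM-CKO heads. Twist2 has lower group means in both groups with Cre, but its CM-Het heads overlap the Het heads.

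Over the 15 probes, 7 were called lower and 0 higher in CM-CKO against Control, where 2.62% of all probes were called lower. They were the probes of Twist1 and Twist2, both Tcf3 probes, Id2 probe 1, Id3 and Id4 probe 2. Twist1 is the gene deleted by design, and Tcf3 is counted by both of its probes. The members were also chosen with earlier results of these data known, so the count is no independent test of the group. The median difference of the 15 probes was −0.42 against −0.03 for all probes. Against Het, 3 were called, all lower (Twist2 and both Tcf3 probes), with 2.90% of all probes called lower and medians of −0.18 and −0.03. Against CM-Het, 4 were called, all lower (Twist1, both Tcf3 probes and Id2 probe 1), with 3.39% of all probes called lower and medians of −0.19 and −0.04. These 3 comparisons share the CM-CKO heads. With slide as a block the counts were 3, 2 and 2. The first held Twist2, Id2 probe 1 and Id4 probe 2, the next Twist2 and Tcf12 probe 2 (−0.66, adjusted p = 0.0416), and the last Id2 probe 1 and Tcf12 probe 2. Without 1 array they ran from 2 to 8, from 0 to 3 and from 3 to 5, and the lowest counts came without Control 2 for the first, Het 2, Het 3 or CM-CKO 2 for the second and CM-CKO 2 for the third. In the first the count was also at most 4 without Control 1, Control 3 or CM-CKO 2, and in the second at most 1 without Het 4 or CM-CKO 4.

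**Figure D4:**
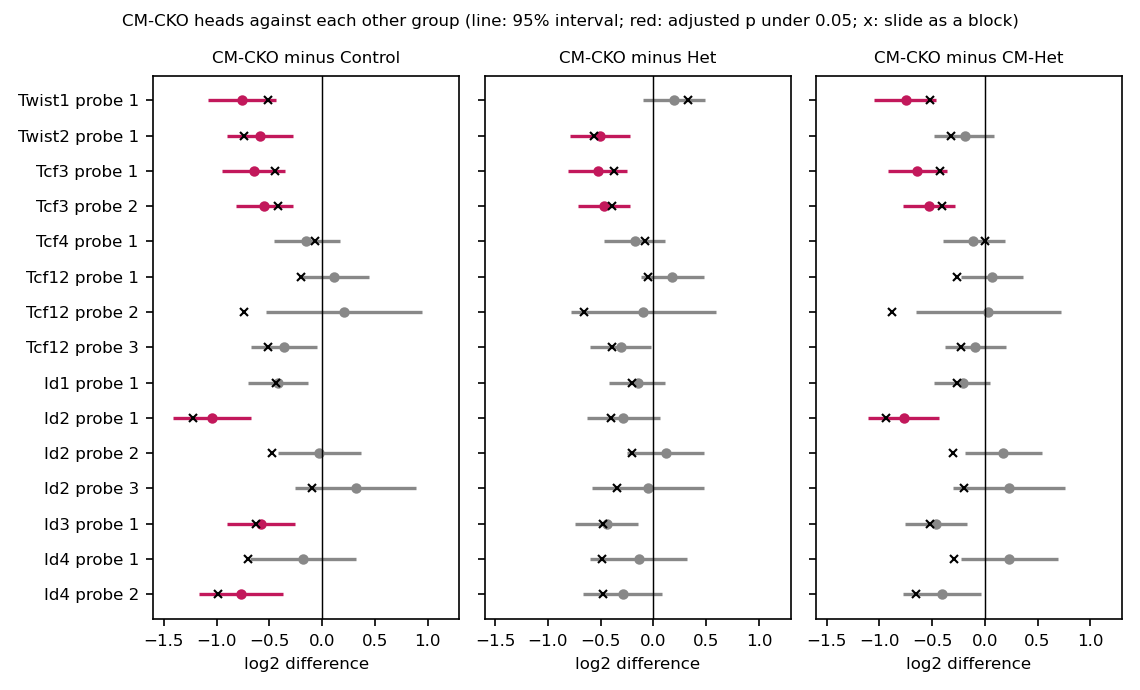
Log2 difference of CM-CKO heads from Control, Het and CM-Het for the 15 probes, with 95% intervals from the limma fit; red marks adjusted p under 0.05 and a cross marks the value with slide as a block. The red points are 7, 3 and 4, all left of 0, and for Twist1 and Tcf3 the crosses lie nearer to 0 wherever the point is red.

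Neither single change was called on any probe against Control. For Het minus Control 0 of the 15 probes were called by limma (0% of all probes) and 3 had an unadjusted p under 0.05, those of Twist1, Id2 probe 1 (−0.75, unadjusted p = 0.000528, adjusted p = 0.65) and Id4 probe 2. For CM-Het minus Control 0 were called (0.0274% of all probes), and Twist2 had an unadjusted p under 0.05. The interaction had 0 calls (0.883% of all probes) and 2 unadjusted p under 0.05, both for Tcf3. The deleted-allele average called 2 probes lower (0.741% of all probes) and the Cre average 1 (0.489%).

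Twist1 and Id2 lie on the same chromosome, with starts 8.86 Mb apart on chromosome 12. The heads with and without the deleted allele did not overlap for Twist1 or for Id2 probe 1. A window of 10 Mb on each side of Twist1, chosen after these values were seen, held 44 other measured genes. By the brightest probe of each gene, the heads did not overlap in 2 of the 44 (4.55%), both lower with the allele. Heads did not overlap, in either direction, in 0 of 338 genes on the rest of chromosome 12 and 0.214% of 11227 genes on other chromosomes. The 2 in the window were Id2 and Twistnb, a subunit of RNA polymerase I whose start is 0.528 Mb from that of Twist1. Id2 had been seen not to overlap before the window was chosen. The share that counts it was therefore partly fixed in advance and is no test of a local cluster. Twistnb read 8.61 to 8.81 on its brighter probe in Control and 8.56 to 8.71 in CM-Het heads. It read 5.06 to 7.80 in Het and 5.38 to 8.30 in CM-CKO heads, with medians of 7.69 and 8.17. The far lowest values were those of Het 1 and CM-CKO 1, both on slide 1, and the same heads were lowest on its other probe (5.39 and 5.64, where Control read 8.01 to 8.46). On that other probe CM-CKO heads reached 8.03 and CM-Het heads went down to 7.89, so heads with and without the allele overlapped. They also overlapped on Id2 probes 2 and 3. The Twistnb difference with the allele was −1.38 ± 0.45 on the brighter probe (adjusted p = 0.117), and −1.10 (adjusted p = 0.11) on the other. By the adjusted p, 2 of the 44 genes were called, Id2 and Trappc12 (−0.62). The sources used here do not give the strain of origin of the sequence around each Twist1 allele, and its part in these values was not tested.

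**Figure D5:**
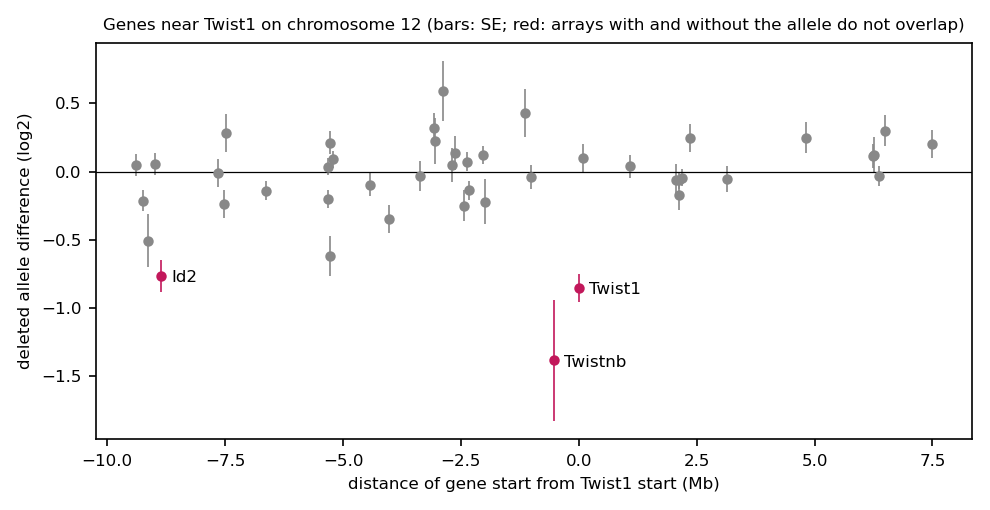
Deleted-allele difference (log2, with standard error) of the 44 measured genes within 10 Mb of Twist1 and of Twist1 itself, by distance of gene start from the Twist1 start. Each gene is shown by its brightest probe. Twist1, Twistnb and Id2, in red, are the genes whose heads with and without the allele do not overlap on it. The median of the 44 is 0.01.

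Other genes of the same network were taken from lists that were chosen with earlier results of these data known. Of 14 measured tissue-specific partners of E proteins, 2 rose in CM-CKO heads in all 3 comparisons and 0 fell. They were the blood and endothelial factors Tal1 (1.88 ± 0.38 against Control, adjusted p = 0.00913) and Lyl1 (1.59 ± 0.35, adjusted p = 0.0147). Of all 11625 measured genes, 3.59%, 3.60% and 4.65% rose against Control, Het and CM-Het, and 2.68%, 3.54% and 3.76% fell. Of 7 Hes, Hey and Dec repressors, Bhlhe40, a stress- and clock-regulated gene, rose by 2.96 ± 0.23 against Control (adjusted p = 1.88e-06). The median of the 7 against Control was −0.32 (−0.03 for all genes), and 4 had an unadjusted limma p under 0.05. Against CM-Het, Hes3 fell by 0.69 (adjusted p = 0.0289) and Hey1 by 0.39 (adjusted p = 0.0441), and neither was called with slide as a block (adjusted p 0.115 and 0.0865).

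Of 11 measured BMP-responsive genes other than Id genes, 0 were called against Control or Het (2 and 4 at an unadjusted limma p under 0.05) and 1, Hey1, against CM-Het, and their median against Control was −0.24 (−0.03 for all genes). Of 9 BMP ligands and receptors 0 were called in any of the 7 planned comparisons (0 or 1 in each at an unadjusted limma p under 0.05), with a median of 0 against Control. Of 18 genes linked to TWIST1 in mesenchyme, suture or limb, 1 fell against Control, 4 against Het and 3 against CM-Het, and 0 rose. At an unadjusted limma p under 0.05 there were 9, 5 and 6, and their median against Control was −0.23 (−0.03 for all genes). Efna4, an ephrin ligand of the coronal suture, fell by 0.59 against Control (adjusted p = 0.00686), by 0.53 against Het (adjusted p = 0.00775) and by 0.57 against CM-Het (adjusted p = 0.00413, but 0.0538 under the slide block). The PDGF receptor Pdgfrb fell by 0.88 and 0.67 against Het and CM-Het (adjusted p 0.00635 and 0.0269, the latter 0.182 with slide as a block) and Pdgfra by 0.49 and 0.56 (adjusted p 0.0124 and 0.00583). Alx4, a homeobox gene of the skull vault, fell by 0.87 against Het (adjusted p = 0.0133).

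Markers of other cells moved with the CM-CKO group. The log2 of the summed signals of 8 measured erythroid genes was 14.92 to 15.71 in CM-CKO heads and 14.54 to 14.87 in the others. That of 5 macrophage and megakaryocyte genes was 8.27 to 9.93 against 6.96 to 7.91. In such sums the brightest genes weigh most. Of the 8 erythroid genes, 6 were called higher in each of the 3 comparisons, with a median of 2.65 against Control (−0.03 for all genes). Of the 5 macrophage and megakaryocyte genes, 3 were called higher in each. The 9 endothelial genes summed to 10.70 to 11.14 in CM-CKO heads and 11.28 to 11.60 in the others. Of these genes, 2 were called lower against Control, 4 against Het and 4 against CM-Het, and 3 in each with slide as a block. The 7 cranial mesoderm genes overlapped, with 9.47 to 9.91 in CM-CKO and 9.49 to 9.83 in the other heads, as did the 6 neural crest genes (12.19 to 12.57 and 12.41 to 12.65) and the 7 neural tube genes (11.91 to 12.25 and 12.03 to 12.37). Of the 7 neural tube genes, 2 were called lower in CM-CKO heads in each of the 3 comparisons, with slide as a block as well, and the median of the 7 against Control was −0.34 (−0.03 for all genes). Of the 6 neural crest genes 1 was called higher against Control and 1 lower against CM-Het. With slide as a block 0 of them were higher and 1 was lower in each of the 3 comparisons. Of the 7 cranial mesoderm genes 1 was called higher against Control, with slide as a block as well. None of the 7 was called against Het or CM-Het, but 1 was lower against Het with the block. Against Control, Het and CM-Het, 2, 3 and 4 of the 7 had an unadjusted limma p under 0.05. The 5 epithelial genes summed to 11.47 to 11.89 in CM-CKO and 11.25 to 11.63 in the other heads. Epb4.2 of the erythroid list and Csf1r and Cx3cr1 of the macrophage list did not pass the filter. The part of these shifts in the differences of the Twist, E-protein and Id genes was not tested.

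For each member with a called probe, the genes with the nearest profiles to its brightest called probe were sought. The measure was the root mean square difference over the 15 arrays of log2 signals centred on their own means. Tcf4, Tcf12 and Id1, which had no call without the slide block, were left out. For Twist1 the nearest was Col24a1, at 0.269 where Twist1 itself varied by 0.464 about its mean, so no gene followed it closely. For Twist2 they were Dbx1 (0.101), Cxcl12 (0.112) and 6330403K07Rik (0.118), with 0.287 for Twist2 itself. For Tcf3 they were Mmp2 (0.119), Cnot11 (0.124) and Alpl (0.131), with 0.315 for Tcf3. For Id2 probe 1 the nearest was Timm17b (0.246 against 0.448), for Id3 Nup107 (0.095 against 0.281) and for Id4 probe 2 Hnrnph1 (0.186 against 0.352). The next nearest were Csn3 and Xndc1 for Twist1, Jakmip2 and Cyb561 for Id2, Bcat1 and Uchl1 for Id3, and Tspan3 and Purg for Id4.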

How the data were processed

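RNA of 15 mouse heads was measured on 1-colour Illumina arrays. The deposited signals were intensity values without normalization, and, per the file headers, each had a detection p-value. The p-values followed another order than the signals and were re-attached by rank within each array. The signals of Het 1 were its own, but its detection column repeated log2 values of the authors' value table, so the rank average of the other 14 arrays stood in for its detection p-values. In 2804 of 45281 rows that table and the signals differed by over 0.02 (log2, after quantile normalization). Of the probes described, these were Id2 probes 2 and 3. Gene names came from the platform annotation. The sources used here do not give the image software.

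Signals were corrected with limma 3.58.1 in R 4.3.3 by its function nec with an offset of 16, then quantile-normalized and log2-transformed. Probes with detection p under 0.05 on at least 3 arrays were kept. Groups came from the genotype labels and were fitted together (lmFit, contrasts.fit, eBayes), with p-values adjusted over all 21869 probes. The script was tested on simulated data. Errors of means are SD and of differences SE. Nothing says which embryos shared a litter, and p-values measure the spread between these heads. The number of arrays limits precision.

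All members were named, with up to 4 called genes per list and comparison and the 3 nearest profiles of each member with a call. Members and lists were chosen with earlier results of these data known. Alternatives covered background correction, scaling, filters, probe summary, slide, replicate number, array weights, the authors' value table and single arrays left out. Replicate numbers were not taken as pairs: over 21 same-number pairs the correlation of deviations ran from −0.161 to 0.301. Figures used matplotlib 3.10.9.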

Additional observations from a re-analysis of the deposited data

Results flagged for a closer look

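In the Het group, head 2 read 4.97 on Id4 probe 2, where the other 3 Het heads read 5.52 to 5.63. Its gap to the nearest of them was 0.837 of the range of the group. It was 1 of 45 groups of 4 heads examined over the 15 probes, and chance alone would mark about 1 in 20 such groups.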

How the results depend on the processing

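All 18 called values kept their direction under every alternative run, and 1 uncalled value changed sign and became called, Tcf12 probe 2 against CM-Het with slide as a block (−0.88). The counts of called probes, 7 against Control, 3 against Het and 4 against CM-Het, became 2 and 0 against Control and Het with median scaling, and 3, 2 and 2 with slide as a block. Fitting only the arrays compared gave 3 against Control, 0 against Het and 0 for CM-Het minus Het. The single Twist1 call of CM-Het minus Het was 0 without the filter. Array weights gave 1 call for Het minus Control and 4 for the deleted-allele average. The Cre average had 0 calls with median scaling and with no filter.

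The replicate numbers were not taken to pair the heads, since not every same-number correlation of deviations exceeded 0.1. Their median was 0.0282, against −0.0153 between different numbers, and 9 of 15 arrays correlated best with an array of their own number, which is a hint from the data and not the design. With the replicate block the counts were 6, 3 and 4 against Control, Het and CM-Het, and 0 for CM-Het minus Het. With the replicate block and slide together they were 0, 0 and 1, with 0 for CM-Het minus Het, 0 for the deleted allele and 0 for Cre.

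Leaving out each array in turn gave 2 to 8 calls against Control, 0 to 3 against Het and 3 to 5 against CM-Het. It gave 0 to 1 for Het minus Control and for CM-Het minus Het, 2 to 4 for the deleted allele (4 without Het 4) and 0 to 2 for Cre. Of 58 listed pathway genes, 4, 7 and 8 were called against Control, Het and CM-Het and 2 in the interaction. Replicate block with slide changed these to 1, 4, 3 and 1, slide as a block gave 5 against CM-Het and 4 in the interaction, and median scaling gave 1 in the interaction. Median scaling moved the median probe by over 0.1 in 2 comparisons, from 0 to 0.12 (CM-Het minus Control) and from −0.03 to −0.17 (interaction). The cause of these changes was not tested. The 3 Control heads, 4 heads in the other groups and 1 CM-CKO head off slide 1 limit every comparison, and the dim probes of Id4, Tcf12 and Id2 lie nearest to background.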

Other observations

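Within single arrays, Twist1 minus Twist2 was 1.29 to 2.21 in Het heads and 2.60 to 3.13 in CM-Het heads, a difference of 1.26 without overlap (exact two-sided permutation p = 0.0286, the smallest possible, and 0.0857 after adjustment over 18 such tests). Tcf3 probe 1 minus Tcf4 probe 1 was −4.58 to −4.03 in CM-CKO heads and −3.96 to −3.56 in CM-Het heads (difference −0.53, exact permutation p = 0.0286, adjusted 0.0857). These contrasts of probe pairs were chosen after the data had been seen.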
